A study of Homo sapiens with 8 samples.

Results

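Semaphorins are guidance proteins that tell cells where to move and where to hold back, and plexins are their receptors. This account covers 10 such genes in a kidney cancer cell line: the semaphorins SEMA6A, SEMA6D, SEMA3A, SEMA3C, SEMA3F, SEMA4B and SEMA5A and the plexins PLXNA2, PLXNA4 and PLXNB2. They are 10 of 18417 genes with a probe set of their own. The list was chosen by a selection made with the PT2399 values of these arrays in view, so PT2399 differences in parental cells are given as a description, with no test. Each gene was read from the probe set with the highest mean, and each of the 10 had 1 probe set.

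The cells were 786-O, an established clear cell renal carcinoma line that lacks working VHL, part of the ubiquitin ligase that removes HIF alpha subunits. There were 8 arrays, 1 for each combination of genotype, treatment and time. The parental line and a HIF2a-null derivative, made with CRISPR per the labels, each received DMSO, the solvent, for 24 h or 48 h, or PT2399 at 2 uM for 24 h or 48 h. PT2399 is a small molecule that keeps HIF2a from pairing with ARNT. All 8 share the VHL-deficient background, and the labels do not say whether the null cells are 1 clone or a pool. The growth text speaks of null cells for every sample, so genotype was taken from titles and characteristics. The submitters state that both genotypes were run as independent experiments, and a genotype difference cannot be told apart from a difference between experiments.

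As background, semaphorins share an extracellular sema domain. Class 3 members are secreted, while classes 4, 5 and 6 span the membrane. Plexins bind them, and most secreted members also need a neuropilin. A bound plexin acts through its intracellular GTPase-activating domain on small GTPases of the Ras and Rap family, and so on adhesion and the actin cytoskeleton. In the kidney, semaphorin signals are known for work in ureteric bud branching, podocytes and vessels.

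EPAS1, the gene of HIF2a, had intensities of 1277 and 1010 in parental DMSO cells and 650 and 585 in null DMSO cells at 24 h and 48 h. The place of the edit relative to the probes was not known here, so this level does not check the edit. Intensity is the deposited linear signal of a probe set, which can be compared between arrays for 1 gene and not between genes. The filter kept the 11050 genes with a mean log2 at or above percentile 40, an intensity of 118. PAX8, a renal lineage factor, had intensities of 1983 to 2562, and the other markers of the line at or above the filter were PAX2, VIM, KRT8, KRT18, CDH6 and ANPEP. CDH6, a kidney cadherin, was itself 1.64-fold and 1.81-fold higher with PT2399 in parental cells. MME lay below the filter, at 44.5 to 159. The filter kept 1 of 8 endothelial genes (CLDN5), 1 of 7 leukocyte genes (CD68) and 1 of 4 fibroblast genes (COL1A1), and 6 of the 8 endothelial genes were below 118 on all arrays. Medians over all probe sets were 99.4 to 121.3 on the null arrays. They were 112.4 to 113.5 on 3 parental arrays and 133.8 on that of PT2399 at 24 h. The summed endothelial intensity was 1032 there and 588 to 666 on the other parental arrays, the leukocyte sum 1699 against 1288 to 1377 and the fibroblast sum 440 against 318 to 349. The part of these in the 24 h values was not tested. The null 48 h PT2399 array stood apart, with correlations of 0.777 to 0.831 with the other null arrays over 11050 genes, where those gave 0.940 to 0.983 among themselves. Null results at 48 h are therefore given beside those at 24 h. These are bulk values, so a lower level could mean fewer cells with the transcript or less of it in each, and the arrays cannot tell these apart.

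Promoter sequences were read for 8 of the 10 genes from RefSeq (GRCh38.p14), 250 bases before to 50 after a start. SEMA6A and SEMA3A were not matched. Printed are SEMA4B, which was lower with PT2399 together with SEMA6A, SEMA3F, which was higher, and SEMA6D, which holds the searched letters, each at its first listed start. Capitals mark ACGTG or GCGTG on either strand, the core that HIF dimers recognise.
SEMA4B, chr15:90201080-90201379, plus strand: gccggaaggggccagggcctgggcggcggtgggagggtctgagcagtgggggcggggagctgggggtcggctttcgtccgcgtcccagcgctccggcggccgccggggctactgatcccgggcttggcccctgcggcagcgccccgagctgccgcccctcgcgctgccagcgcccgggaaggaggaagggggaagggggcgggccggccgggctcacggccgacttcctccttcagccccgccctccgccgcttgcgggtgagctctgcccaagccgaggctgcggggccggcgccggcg
SEMA3F, chr3:50154808-50155107, plus strand: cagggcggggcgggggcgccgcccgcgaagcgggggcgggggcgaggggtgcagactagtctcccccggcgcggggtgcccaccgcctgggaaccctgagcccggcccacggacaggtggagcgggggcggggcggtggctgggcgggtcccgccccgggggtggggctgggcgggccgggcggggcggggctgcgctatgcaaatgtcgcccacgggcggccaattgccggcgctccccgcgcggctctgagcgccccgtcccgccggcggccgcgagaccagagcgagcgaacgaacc
SEMA6D, chr15:47183839-47184138, plus strand: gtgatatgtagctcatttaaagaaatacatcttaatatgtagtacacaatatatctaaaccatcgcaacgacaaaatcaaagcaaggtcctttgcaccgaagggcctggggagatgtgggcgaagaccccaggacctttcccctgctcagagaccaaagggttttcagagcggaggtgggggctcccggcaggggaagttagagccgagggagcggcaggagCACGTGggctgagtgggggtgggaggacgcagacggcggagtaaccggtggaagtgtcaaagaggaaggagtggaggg
The SEMA4B and SEMA3F windows held no match, at this start or at the other listed starts. The SEMA6D window held 2 overlapping matches, 1 on each strand of the same palindrome, from 28 bases before the start; those letters are also an E-box. PLXNA4 was the other gene with matches, 3 in its window. So 2 of 8 genes had a match at their first start, while 48.4% of all 35097 promoter windows of this length did. A match is a description of letters, and no match says nothing of binding elsewhere.

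SEMA6A, a transmembrane ligand that binds PLXNA2 and PLXNA4, had the largest PT2399 difference of the 10 genes. In parental cells its intensity was 1022 at 24 h and 588 at 48 h in DMSO, and 249 and 215 with PT2399. Both PT2399 values lay below both DMSO values. The share of all genes whose treatments or genotypes did not overlap was not counted, so nothing is read from this here or for the genes below. The level was 4.10-fold lower at 24 h and 2.73-fold lower at 48 h, a mean log2 difference of -1.74 (SE 0.26, 2 pairs, from 1 limma model over the 8 arrays). That SE pools the spread of both genotypes and is drawn towards that of all genes, so the null 48 h PT2399 array enters it. For SEMA6A itself the SD of the 2 pairs was 0.41 in parental and 0.03 in null cells. A fit of the 4 parental arrays alone gave an SE of 0.18. That SE is also drawn towards the spread of all genes, so it is not the SEMA6A spread alone. The SEMA6A mean difference was the 8th lowest of 11050 genes, with no test. SEMA6A was the 1 listed gene at least 2-fold lower at both times, where 0.253% of all genes were. SEMA3A, described below, was 1.95-fold higher at 48 h and so just missed the same limit on the higher side, which 0.0452% of all genes met.

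In null cells the SEMA6A intensity was 119 at 24 h and 96.4 at 48 h in DMSO, and 86.0 and 72.3 with PT2399. All 4 lay below the 4 parental values, and only the first was as high as the filter limit of 118, so SEMA6A passed the filter through its parental level. In DMSO the null level was 8.61-fold lower than the parental level at 24 h and 6.10-fold lower at 48 h. Ordered from the highest, the 8 arrays ran from parental DMSO at 24 h and 48 h to parental PT2399 at 24 h and 48 h, and then null DMSO and null PT2399 in the same order of times. Within each genotype and treatment the 48 h value was below the 24 h value, most clearly in parental DMSO cells at 1.74-fold. That step is smaller than the SEMA6A difference with PT2399 at either time. The neighbours parental PT2399 at 24 h and 48 h were 1.16-fold apart.

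**Figure D1:**
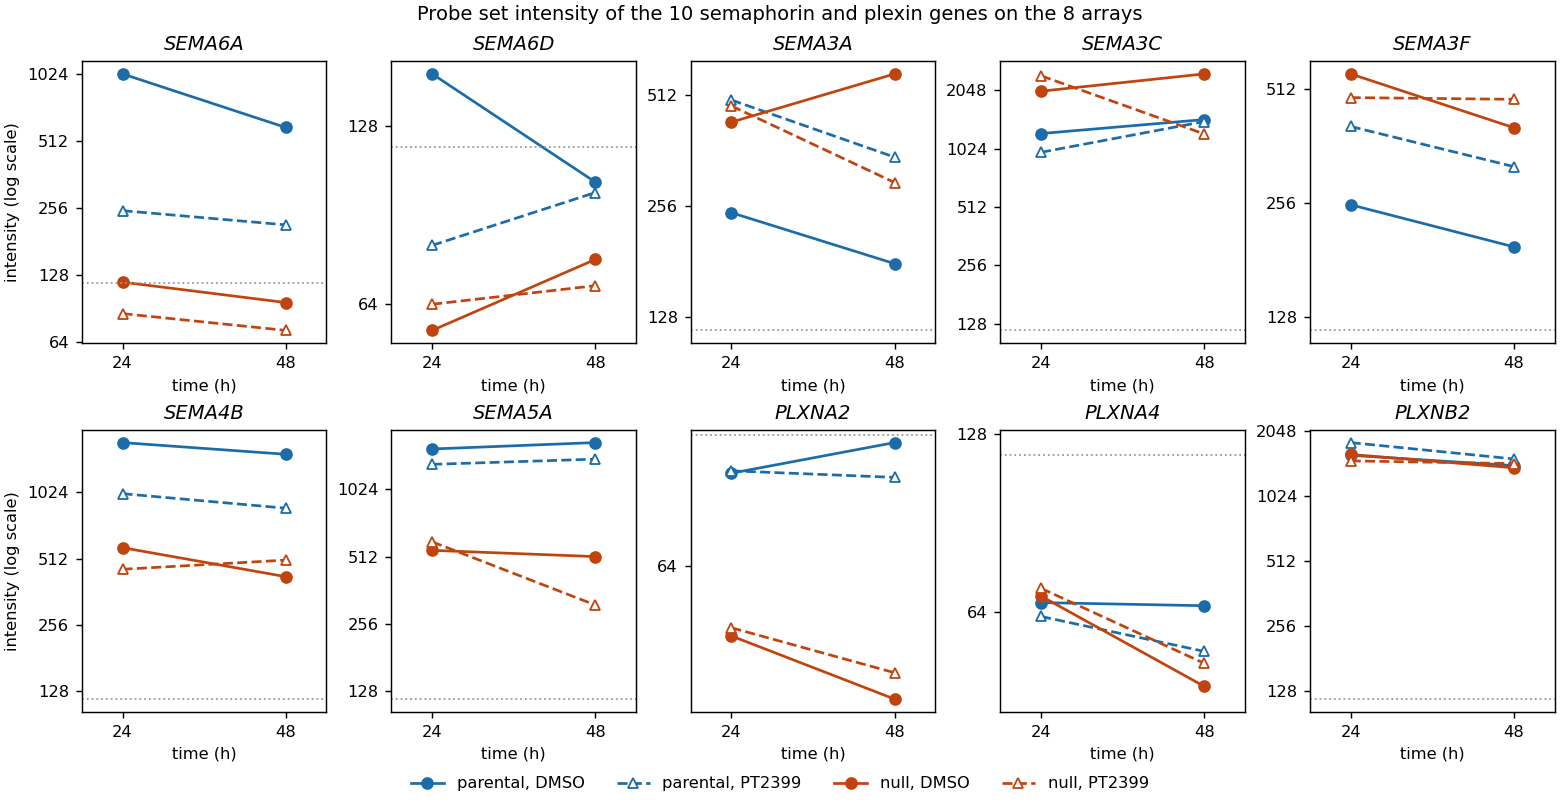
Probe set intensity (log scale) against time in hours for the 10 genes, 1 point per array, with circles for DMSO, triangles for PT2399, blue for parental and red for null cells; the dotted line is the filter limit of 118. SEMA6A runs from 1022 in parental DMSO cells at 24 h to 72.3 in null PT2399 cells at 48 h, and SEMA3A and SEMA3F have their lowest values in parental DMSO cells.

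SEMA4B, a class 4 transmembrane semaphorin, was also lower with PT2399, by less. Its parental intensity was 1721 and 1523 in DMSO and 1009 and 867 with PT2399, at 24 h and 48 h. The 2 treatments did not overlap. The differences were close to each other, 1.71-fold lower at 24 h and 1.76-fold lower at 48 h (mean log2 -0.79, SE 0.25, 2 pairs). In null cells it stood at 574 and 424 in DMSO and at 458 and 504 with PT2399, so that all 4 null values were below the 4 parental ones. In DMSO the null level was 3-fold and 3.59-fold lower.

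SEMA6D, the class 6 relative of SEMA6A and a ligand of PLXNA1, was dim, with a mean below the filter. Its parental intensity was 157 and 103 in DMSO and 80.5 and 98.9 with PT2399. The 24 h difference was 1.95-fold lower, and at 48 h the values were 1.04-fold apart, so the 2 times do not repeat each other. Null intensities were 57.8 to 76.2, all below the parental ones.

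SEMA5A, a transmembrane semaphorin that binds PLXNB3, had parental intensities of 1551 and 1657 in DMSO and 1324 and 1397 with PT2399. It was 1.17-fold and 1.19-fold lower, a mean log2 difference of -0.24, with an SE of 0.29 over the 8 arrays and 0.13 over the 4 parental arrays. The treatments did not overlap here either. The genotype difference was larger: in DMSO null cells SEMA5A stood at 546 and 512, which was 2.84-fold and 3.23-fold lower. With PT2399 the null values were 596 at 24 h and 311 at 48 h, the second on the array that stood apart.

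The secreted class 3 members differed in direction. SEMA3A, which signals through NRP1 and A-type plexins, had parental intensities of 246 and 179 in DMSO and 497 and 348 with PT2399. It was 2.02-fold higher at 24 h and 1.95-fold higher at 48 h (mean log2 0.99, SE 0.32, 2 pairs), with no overlap between the treatments. In null DMSO cells it was also higher than in parental DMSO cells, at 433 and 585. With PT2399 the null values were 479 at 24 h and 297 at 48 h, the last on the array that stood apart.

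SEMA3F, which signals through NRP2, had parental intensities of 253 and 196 in DMSO and 407 and 319 with PT2399. It was 1.61-fold higher at 24 h and 1.63-fold higher at 48 h (mean log2 0.69, SE 0.24, 2 pairs), and again the treatments did not overlap. The null values were 560 and 404 in DMSO and 485 and 480 with PT2399, so 3 of the 4 were above every parental value and the fourth lay just under the parental 24 h PT2399 value of 407. In DMSO the null level was 2.21-fold and 2.06-fold higher.

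SEMA3C, which binds both neuropilins and PLXND1, had parental intensities of 1223 and 1444 in DMSO and 979 and 1410 with PT2399. The treatments overlapped, and the mean log2 difference was -0.18, with an SE of 0.36 over the 8 arrays and 0.14 over the 4 parental arrays. In null cells it stood at 2023 and 2484 in DMSO, 1.65-fold and 1.72-fold above the parental level, and at 2429 with PT2399 at 24 h. The null 48 h PT2399 array gave 1217, below every other null value.

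Of the 3 plexins, PLXNB2, a B-type receptor, was bright and nearly level, at 1383 to 1808 over the 8 arrays. Its parental mean log2 difference was 0.15 (SE 0.23), and after centring each array on its median 0.03, with the 24 h value turning to -0.05. After quantile normalisation the mean was 0.18, with 0.26 at 24 h. PLXNA2, a receptor of SEMA6A, was below the filter throughout, at 96.9 to 114 in parental and 34.4 to 48.0 in null cells. The genotypes did not overlap in PLXNA2, and the treatments did within parental cells. PLXNA4, the other SEMA6A receptor, stood at 48.0 to 70.3 over all arrays, again below the filter. How much of such dim signal is background was not tested.

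Over the 10 genes, 6 were lower and 3 higher at both times in parental cells, with PLXNA2 on both sides of 0. Of the 7 genes at or above the filter, 4 were lower (SEMA6A, SEMA3C, SEMA4B and SEMA5A) and 3 higher (SEMA3A, SEMA3F and PLXNB2), where 27.1% and 30.7% of all genes tested were. At least 1.5-fold lower at both times were SEMA6A and SEMA4B, a limit that 0.624% of all genes met. At least 1.5-fold higher were SEMA3A and SEMA3F, where 0.362% of all genes were. The median of the 7 was -0.18, beside 0.02 over all genes tested. Since these values chose the genes, nothing is read from the counts. The parental 24 h PT2399 array had a higher median over all probe sets, and the size of the 24 h values depends on the scaling. After centring SEMA3A was 0.77 at 24 h and 0.97 at 48 h, SEMA3F 0.44 and 0.72, and SEMA4B -1.02 and -0.80. After quantile normalisation they were 0.96 and 0.88, 0.61 and 0.63, and -0.79 and -0.82. Over all genes tested the median 24 h difference was 0.02, with -0.23 after centring and -0.01 after quantile normalisation.

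**Figure D2:**
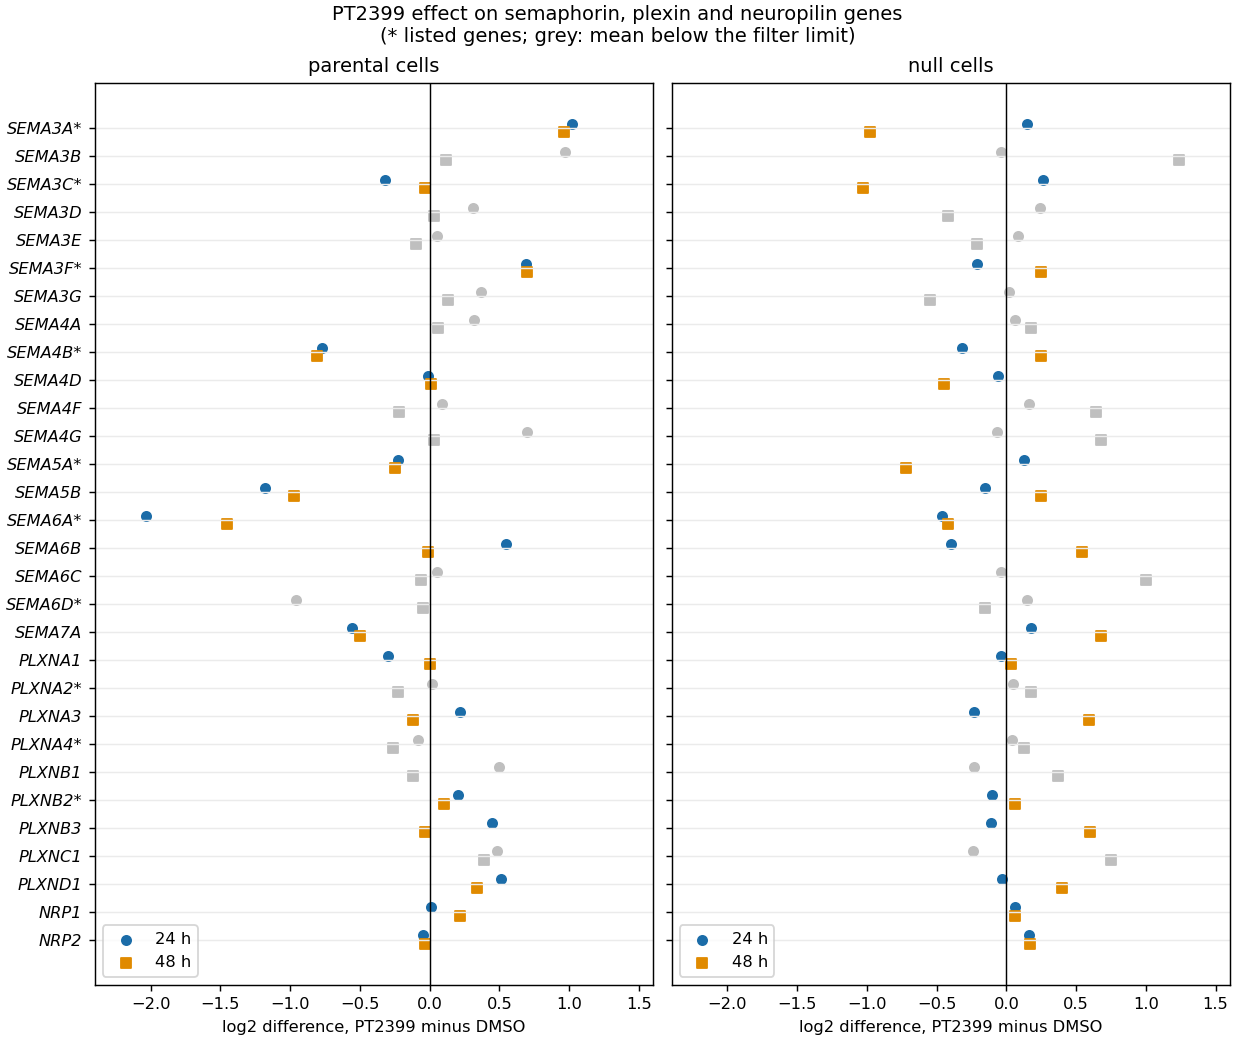
Log2 difference of PT2399 minus DMSO at 24 h (circles) and 48 h (squares) for 30 semaphorin, plexin and neuropilin genes, in parental (left) and null cells (right), 1 pair of arrays per point; asterisks mark the 10 listed genes and grey points have a mean below the filter. SEMA6A at -2.03 and -1.45 and SEMA3A at 1.02 and 0.96 are at the edges in parental cells, and in null cells many 48 h points, from the array that stood apart, lie far from their 24 h points.

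The effect of PT2399 in null cells was not the contrast that chose the genes, and it was tested. Earlier results of these data were known when the genes were chosen, so this test is not fully independent of that choice. Limma called 0 of the 7 genes in null cells at an adjusted p of 0.05, and 0% of all 11050 genes, with 0 of the 7 and 481 of all genes at an unadjusted p under 0.05. The same model also called 0% of all genes for PT2399 in parental cells. There EGLN3, read as a check of the treatment, was 6.23-fold lower on the mean of both times (limma adjusted p = 0.609). With so few arrays, 0 calls in this model do not show that an effect is absent. SEMA6A stood at -0.46 at 24 h and -0.42 at 48 h in null cells (mean log2 -0.44, SE 0.26, limma adjusted p = 0.608). It was the 1 listed gene among the 7 with one direction at both times, and its null levels lay at or below the filter limit. SEMA4B was -0.32 and 0.25 (limma adjusted p = 0.953) and SEMA3F -0.21 and 0.25 (limma adjusted p = 0.971), on both sides of 0. SEMA3A was 0.15 at 24 h and -0.98 at 48 h (limma adjusted p = 0.624), SEMA3C 0.26 and -1.03 (0.648), and SEMA5A 0.13 and -0.72 (0.655). With the null 24 h pair left out, the null effect comes from the array that stood apart and its DMSO partner, and limma called these 3 genes and 5137 in all. That fit has 1 null array per treatment and takes its spread from the parental arrays alone, assuming that null arrays vary alike, so these calls are not a result on the null effect. Of the 10 genes 0 were at least 1.5-fold lower or higher at both times in null cells, where 0.525% and 0.172% of all genes tested were.

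The difference between the parental and the null effect is given with no test, since it holds the parental values. It was -1.30 (SE 0.36) for SEMA6A, -0.75 (SE 0.36) for SEMA4B, 1.40 (SE 0.46) for SEMA3A and 0.67 (SE 0.35) for SEMA3F. For SEMA3A part of it is the null 48 h value of -0.98, and at 24 h alone the parental and null effects were 1.02 and 0.15. For SEMA4B part of it is the null 48 h value of 0.25, and the 24 h effects were -0.77 and -0.32. For SEMA3F the null 48 h value of 0.25 made the difference smaller, with 24 h effects of 0.69 and -0.21. The SEMA6A values in null DMSO cells were 119 and 96.4, and whether such a low level limits the size of a fall was not tested.

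The PT2399 difference and the genotype difference in DMSO share the parental DMSO arrays, so a high or low value there moves both the same way. Side by side at 24 h and 48 h, SEMA6A was -2.03 and -1.45 with PT2399 and -3.11 and -2.61 for null over parental. SEMA4B was -0.77 and -0.81, beside -1.58 and -1.84. SEMA3A was 1.02 and 0.96, beside 0.81 and 1.71, and SEMA3F 0.69 and 0.70, beside 1.15 and 1.04. SEMA5A was -0.23 and -0.25, beside -1.51 and -1.69, and PLXNA2 0.02 and -0.23, beside -1.10 and -1.73, so for these genes the genotype value was several times the drug value. SEMA3C differed in sign, at -0.32 and -0.03 beside 0.73 and 0.78. Genotype values depend on the scaling. Over all genes tested their medians were -0.20 at 24 h and -0.13 at 48 h, and -0.31 and 0.06 after centring. The mean SEMA6A genotype value was -2.86, with -2.81 after centring and -2.71 after quantile normalisation. In DMSO 3 of the 7 genes (SEMA6A, SEMA4B and SEMA5A) were at least 2-fold lower in null cells at both times, where 4.68% of all genes were, and 1 (SEMA3F) at least 2-fold higher, where 3.11% were. PT2399-treated parental cells did not reach the null DMSO level of SEMA6A, which was still 2.10-fold lower at 24 h and 2.23-fold lower at 48 h. SEMA3A in PT2399-treated parental cells was 497 and 348, against 433 and 585 in null DMSO cells, on both sides of it.

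**Figure D3:**
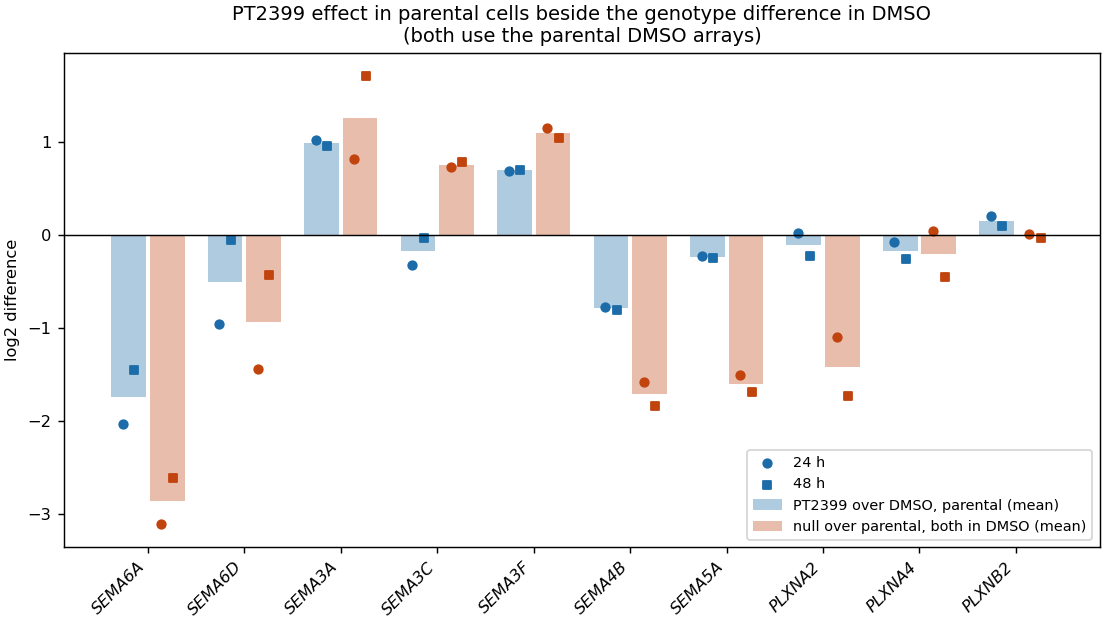
Log2 difference for each of the 10 genes, with blue for PT2399 over DMSO in parental cells and red for null over parental cells in DMSO; bars are the means of 24 h (circles) and 48 h (squares), and both comparisons use the parental DMSO arrays. SEMA6A is lowest in both, at means of -1.74 and -2.86, while SEMA5A is at -0.24 and -1.60.

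Time was tested in the same model, over the DMSO and PT2399 pairs of each genotype. Limma called 0 of the 7 genes and 0% of all genes for 48 h over 24 h in parental cells, with 92 of all genes and 0 of the 7 at an unadjusted p under 0.05. In null cells it also called 0 of the 7 and 0% of all genes, with 879 and 0 at an unadjusted p under 0.05. In parental cells SEMA6A was -0.80 in DMSO and -0.21 with PT2399 (limma mean -0.50, SE 0.26, adjusted p = 1). SEMA3A was -0.46 and -0.52 (mean -0.49, SE 0.32) and SEMA3F -0.37 and -0.35 (mean -0.36, SE 0.24), so both were lower at 48 h in either treatment, with adjusted p = 1 by limma.

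Other members of the families were taken from a list of all semaphorins, plexins and neuropilins. They are what the choice of the 10 genes left over, and that choice was made with the PT2399 values in view. Their p-values for PT2399 in parental cells are therefore not independent of that choice. Of 20 further genes measured, 10 were at or above the filter, and limma called 0 of the 10 for PT2399 in parental cells and 0% of all genes, with 1 of the 10 and 130 of all genes at an unadjusted p under 0.05. That 1 was SEMA5B, the transmembrane relative of SEMA5A, with parental intensities of 339 and 161 in DMSO and 150 and 82.4 with PT2399. It was 2.26-fold and 1.95-fold lower (mean log2 -1.07, SE 0.24, limma unadjusted p = 0.005, adjusted p = 1), the largest of the 10 in size. Its DMSO level also differed between the times, so that the 48 h DMSO value of 161 and the 24 h PT2399 value of 150 were close. SEMA7A, which is anchored in the membrane by a lipid and binds PLXNC1 and integrins, had 213 and 400 in DMSO and 144 and 282 with PT2399 (mean log2 -0.53, SE 0.25, limma adjusted p = 1). Its treatments overlapped, since the 48 h level was above the 24 h level by 0.91 in DMSO and 0.97 with PT2399, more than the treatments were apart.

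The neuropilins, read from their brighter probe sets, were nearly level. NRP1, the main co-receptor of SEMA3A, stood at 895 to 1186 over the 8 arrays, and NRP2, that of SEMA3F, at 1168 to 1371. A second NRP2 probe set disagreed in null cells, at 658 and 942 in DMSO against 1286 and 1160 in parental DMSO cells, and at 291 on the null 48 h PT2399 array. PLXND1, a receptor of SEMA3E and SEMA3C, was 0.51 and 0.34 with PT2399 in parental cells (SE 0.24, limma adjusted p = 1), PLXNA1 -0.30 and 0.00, and PLXNB3, the SEMA5A receptor, 0.45 and -0.03. PLXNA3, an A-type plexin, was 0.22 and -0.12, on both sides of 0. SEMA6B was 0.55 and -0.01. SEMA4D, the PLXNB1 ligand, was -0.01 and 0.01 on its brighter probe set, while a dimmer one disagreed at 24 h, with 108 and 114 in DMSO and 207 and 94.2 with PT2399. Below the filter were PLXNB1, PLXNC1, SEMA3B, SEMA3D, SEMA3E, SEMA3G, SEMA4A, SEMA4F, SEMA4G and SEMA6C. SEMA3E and SEMA3D are the genes next to SEMA3A on chromosome 7, and SEMA3E stood at 26.2 to 39.4 over the 8 arrays. SEMA3D was 50.5 to 62.5 in parental and 14.9 to 19.9 in null cells, which can be genotype or experiment. With PT2399 in parental cells SEMA3E was 0.05 and -0.10 and SEMA3D 0.31 and 0.03, both smaller than SEMA3A at either time. SEMA4A was 193 to 250 in parental and 49.4 to 55.8 in null cells, and this difference can be genotype or experiment.

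Around the receptors, lists of co-receptors, intracellular effectors and other guidance families were described by counts, and limma called 0 of their genes for PT2399 in parental cells and 0 at an unadjusted p under 0.05, of 7 co-receptors, 31 effectors and 20 other guidance genes at or above the filter. Over all genes tested, 27.1% were lower and 30.7% higher at both times. Among the 7 co-receptors, whose median was 0.05, 3 were lower and 2 higher at both times. MET, the hepatocyte growth factor receptor that pairs with B-type plexins, was -0.28 and -0.06, and the myeloid receptor pair TREM2 and TYROBP was 0.19 and 0.26 and 0.39 and 0.08. Among the 31 effectors, whose median was 0.01, 7 were lower and 11 higher at both times. FYN, a Src-family kinase that acts below SEMA3A receptors, was 0.60 and 0.47 (mean 0.53, SE 0.23, limma adjusted p = 1), with intensities of 96.0 and 84.0 in DMSO and 145 and 116 with PT2399. EVL, an actin regulator that binds the SEMA6A tail, was 0.33 and 0.35, and its relative ENAH 0.29 and 0.27. MICAL3 at -0.21 and -0.15 and LIMK2 at -0.13 and -0.31, an actin oxidation enzyme and a cofilin kinase, were lower. Of the 20 ephrin, Eph, netrin, Slit and Robo genes and their kin, whose median was 0.14, 3 were lower and 9 higher at both times. Past 1.5-fold at both times were 0 of the 20, where 0.624% of all genes were lower and 0.362% higher by that much. The median of all genes was 0.02, and -0.09 after centring, so small differences here lean on the scaling.

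**Figure D4:**
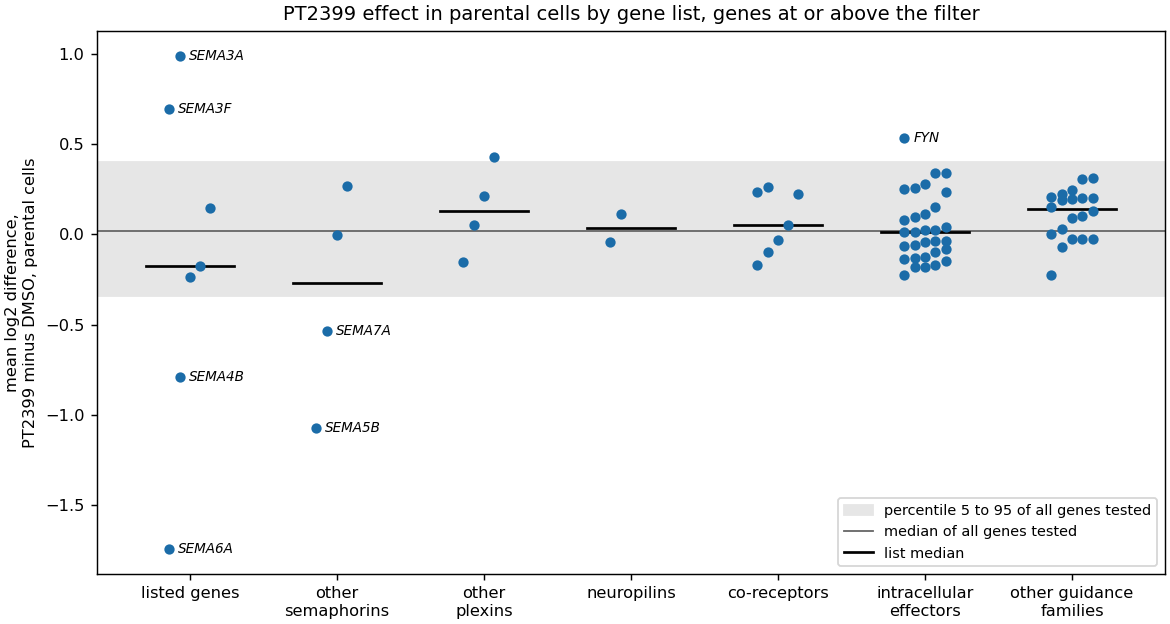
Mean log2 difference of PT2399 minus DMSO in parental cells (mean of 24 h and 48 h) for genes at or above the filter, by list; bars are list medians, the grey band spans percentile 5 to 95 of all genes tested (-0.34 to 0.40) and the line is their median of 0.02. Outside the band lie 4 of the 7 listed genes, SEMA5B, SEMA7A, PLXND1 and FYN.

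The genes most like SEMA6A over the 8 arrays were found by Pearson correlation of log2 values, as a description, since the arrays share genotypes, treatments and experiments. Genes with locus, reading frame, antisense or small RNA names, or numbered FAM, KIAA or TMEM names, were left out. The 6 highest of the rest were DEPP1, CP, GAL3ST1, SMPDL3A, SEMA4B and RNASET2, at 0.974 to 0.990. DEPP1 is a FOXO-linked stress protein, CP the copper carrier ceruloplasmin, GAL3ST1 the sulfotransferase that makes sulfatide, SMPDL3A a phosphodiesterase and RNASET2 a secreted ribonuclease. CP, for instance, went from 1517 and 1010 in parental DMSO cells to 554 and 454 with PT2399 and 302 and 301 in null DMSO cells, the same order of groups as SEMA6A. With no gene left out SEMA4B ranked 5th of 11049 genes (r = 0.98) and SEMA5A 140th (r = 0.88). At the other end, with the same names left out, were PPP1R35, TIMP1 and MSC, at -0.953 to -0.969, and SEMA3F was also opposed, at -0.86. Without the null 48 h PT2399 array the 6 genes stood at 0.977 to 0.994.

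**Figure D5:**
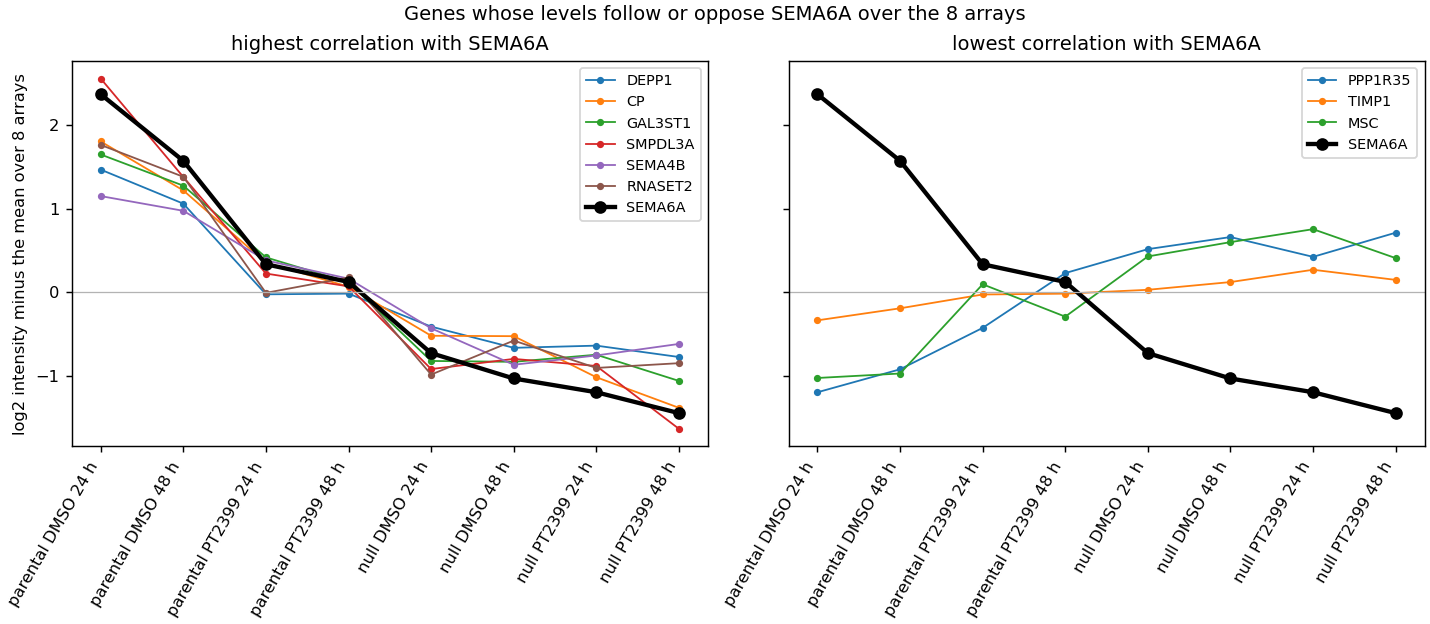
Log2 intensity minus each gene's mean over the 8 arrays, for SEMA6A (black) with the 6 genes of highest (left, r of 0.974 to 0.990) and the 3 of lowest correlation (right, r of -0.953 to -0.969). SEMA6A and the 6 genes descend from parental DMSO through parental PT2399 to null arrays, and TIMP1 has the same order of groups as the other 2 opposed genes with a smaller range.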

How the data were processed

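RNA of 8 samples was measured on 8 Affymetrix arrays from 100 ng with the WT Plus kit, per the labels' protocols. The deposited values are linear probe set intensities made by the authors. Background correction, summarisation and scaling: not given in the sources used here. Of 33252 probe sets, 19460 name 1 gene, 1754 several and 12038 none; 19429 symbols were updated by Entrez ID. Each of 18417 genes took its probe set of highest mean, log2 was taken, and the 11050 genes at or above percentile 40 were tested. One limma 3.58.1 model (R 4.3.3) over the 8 arrays fitted for each genotype its level, the step from 24 h to 48 h and the PT2399 effect, with 2 residual degrees of freedom and Benjamini-Hochberg adjustment over 11050 genes at 0.05. The 24 h and 48 h pairs are the only repeats, the labels do not say that they are separate cultures, and p-values measure only the spread between these samples, whose number limits the precision. The members and lists were chosen with earlier results of these data known. Genes named besides the members were all other family genes, up to 4 of the largest differences each way per list with one direction at both times, and the 6 genes most like and 3 least like SEMA6A. For likeness to SEMA6A, genes with names of the kinds given above were left out. The model was tested on simulated data. The simulated noise was independent between arrays, with no array that stands apart, so that test does not show how the model behaves on these arrays. Alternatives changed the scaling, offset, probe set, filter, time term and arrays used.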

Additional observations from a re-analysis of the deposited data

Results flagged for a closer look

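For 3 of the 30 family genes measured, PT2399 went one way in both parental pairs and the other way in both null pairs. The share of all genes that meet this rule was not counted, so nothing is read from the number. SEMA7A was -0.56 and -0.50 in parental and 0.18 and 0.68 in null cells at 24 h and 48 h, a difference in mean log2 of -0.96. Part of that difference is the null 48 h value of 0.68, on the array that stood apart. NRP2 was -0.05 and -0.03 beside 0.16 and 0.17, a difference of -0.20, and its second probe set read differently in null cells. PLXNA4 was -0.08 and -0.26 beside 0.04 and 0.13, a difference of -0.25, at a level below the filter. These genes were picked for opposite signs, so no test of the difference is given.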

How the results depend on the processing

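The mean SEMA6A difference in parental cells was -1.68 to -1.86 under the other scalings, offset and probe set rule, and -1.45 to -2.03 when a pair of arrays was left out. The count of genes past the limma threshold for PT2399 in null cells was 0 to 3 when a pair was left out. The 3 were SEMA3A, SEMA3C and SEMA5A, with the null 24 h pair left out, so that the 48 h pair alone gave the null effect and the parental arrays alone the spread. It was 0 under the other alternatives run. Genes lower at both times in parental cells numbered 7 in place of 6 after centring and after quantile normalisation, where PLXNA2 joined. Of 76 single-gene values under another scaling, offset or probe set, 12 moved by more than the SD of the 2 pairs and 2 changed sign, SEMA4B to 0.01 and PLXNB2 to 0.02 in null cells with quantile normalisation. With 1 pair left out, the sign of the null effect changed for 6 genes: to 0.15 for SEMA3A, 0.26 for SEMA3C, -0.21 for SEMA3F and 0.13 for SEMA5A without the 48 h pair, and to 0.25 for SEMA4B and 0.06 for PLXNB2 without the 24 h pair. In parental cells it changed for PLXNA2, to 0.02 without the 48 h pair. A pair left out always stays within the SD of 2 pairs, so that SD says nothing of these. The labels give no replicate numbers; the time term pairs PT2399 with DMSO, and without it limma also called 0 of the 7 genes in null cells. Signal and background were not separated for the dim SEMA6D, PLXNA2 and PLXNA4.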
